A study of Homo sapiens with 12 samples.

Results

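Iron-sulfur clusters are inorganic cofactors that mitochondria build from iron and from sulfur taken from cysteine. The 9 genes described here, NFS1, LYRM4, ISCU, HSCB, GLRX5, ISCA1, ISCA2, CISD1 and CISD2, encode proteins that make, carry or hold such clusters. The genes were taken as a list of names, with earlier results of these data known, and every one of the 9 was found by Ensembl identifier among the 61806 rows of the LP-1 table and by symbol among the 19130 rows of the U266 table. All 9 passed the filter on low values in both lines, a level of 1 FPKM or more (reads relative to transcript length and library size, as deposited) in 3 or more of a line's 6 libraries.

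RNA came from LP-1 and U266, established human multiple myeloma lines of malignant plasma cells, with the genotype given as WT. The 4 groups were LP-1 with DMSO, LP-1 with dihydroartemisinin (DHA), U266 with DMSO and U266 with DHA, each of 3 libraries and each collected after 12 h. DHA, an artemisinin antimalarial whose peroxide bridge reacts with ferrous iron and heme, was given at its IC50 (the sources used here give no concentration), and controls got the same amount of the solvent DMSO. Nothing says that libraries of a group came from separate cultures, so the p-values measure the spread between these libraries, which may be technical.

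As background, NFS1 is the cysteine desulfurase that strips sulfur from cysteine, and it works in a complex with the small protein LYRM4 (ISD11). Sulfur and iron meet on the scaffold ISCU, and the co-chaperone HSCB brings the loaded scaffold to the mitochondrial heat shock protein HSPA9, which releases the cluster to the glutaredoxin GLRX5. ISCA1 and ISCA2 then take part in making the larger clusters that lipoate synthase, aconitase and the respiratory chain use. CISD1 (mitoNEET, in the outer mitochondrial membrane) and CISD2 (mainly in the endoplasmic reticulum) are not assembly enzymes but hold a labile cluster that they can hand on. Loss of cluster supply makes the iron regulatory proteins raise iron uptake, and both NFS1 and CISD1 are known as genes that limit ferroptosis, the iron-dependent death through oxidized lipids.

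LP-1 libraries had an estimated depth of 13.5 to 17.6 M reads, and U266 libraries one of 10.3 to 21.7 M, which gave 98 to 2449 reads per library for a gene of the 9 in LP-1 and 125 to 5117 in U266. Between 79.09 and 82.24% of the low estimates were even numbers in 5 U266 libraries, against 37.35 to 39.91% in LP-1. A read number in those 5 U266 libraries may thus count both mates of a pair. In the other U266 library, DHA library 3, the share was 50.3%. The part of that difference in the U266 changes was not tested. One library in each line stood apart. DMSO library 3 of LP-1 differed from DMSO libraries 1 and 2 by a mean chi-square per gene of 51.0 and 85.2 on estimated reads, against 7.94 between those 2 and 1.76 to 2.84 among the DHA libraries. For DHA library 3 of U266 it was 22.3 and 29.2, against 4.05 between the other 2. That library held 18399 genes above 0, against 14800 and 14971 in DHA libraries 1 and 2. All 9 genes were higher in DMSO library 3 of LP-1 than in the mean of DMSO libraries 1 and 2, by a median of 0.46 on the log2 scale, where the 12514 tested genes had a median of -0.06, and 7 of the 9 had their highest value of the 6 libraries there. In DHA library 3 of U266 the same median was -0.04 for the 9 genes and -0.01 for the 10422 tested. Changes of the 9 genes are therefore given with all libraries and without these.

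The plasma cell markers checked the label of the lines. Of 7, 6 reached 1 FPKM in LP-1, where SLAMF7 stayed at 0.03 to 0.14 FPKM, and 7 did in U266, where MZB1 was low at 2.28 to 3.86 FPKM. Their summed level was 956 to 1329 FPKM with DMSO and 913 to 925 FPKM with DHA in LP-1, and 1044 to 1064 against 706 to 773 FPKM in U266. Within the list the markers moved unequally. SDC1 (syndecan-1) fell from 30.9 ± 1.72 to 5.16 ± 0.48 FPKM in LP-1 (log2 change -2.38, limma adjusted p = 4.93e-05) and from 192.2 ± 5.16 to 88.4 ± 6.02 FPKM in U266 (-1.11, adjusted p = 3.1e-07). IRF4, a plasma cell transcription factor, rose from 79.9 ± 14.3 to 252.8 ± 7.93 FPKM in LP-1 (1.67, adjusted p = 0.000513) and was at 178.9 ± 6.13 and 178.9 ± 7.36 FPKM in U266. The summed levels of 4 markers each of B cells, of T and NK cells, of monocytes and macrophages and of stroma were at most 1.28, 0.34, 0.26 and 0.24 FPKM in LP-1. In U266 they were at most 1.41, 1.70, 0.80 and 1.51 FPKM with DMSO and reached 7.99, 4.43, 4.90 and 5.47 FPKM with DHA, the first 3 of these in DHA library 3 and the last in DHA library 1. Of these markers CD3D and PDGFRB were at 0 in every LP-1 library. The part of that signal in the results below was not tested. In RNA from a bulk culture, fewer cells and less RNA per cell cannot be told apart.

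**Figure D1:**
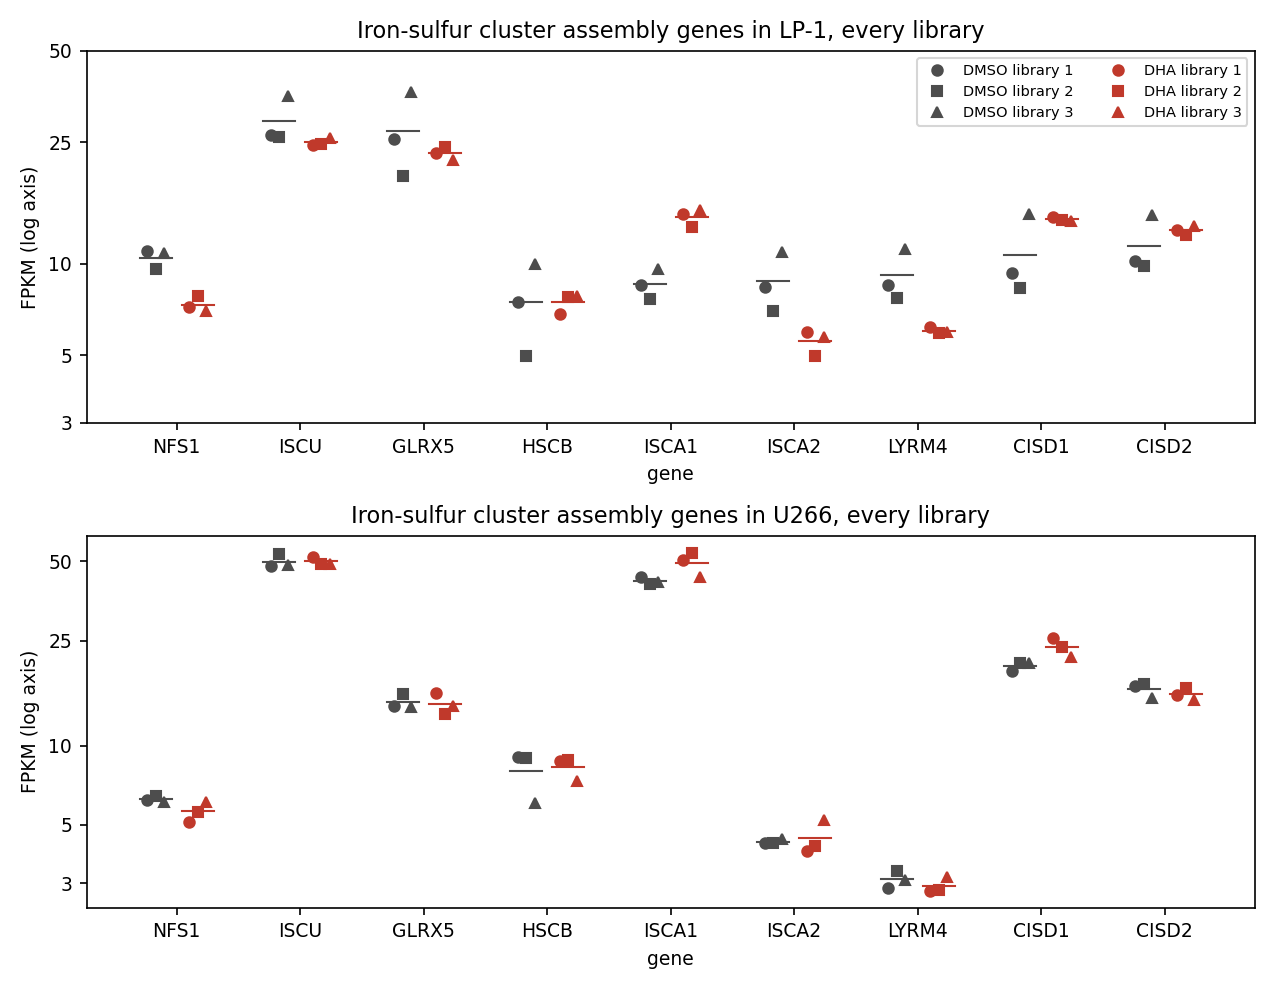
FPKM (log axis) of the 9 genes in each of the 12 libraries, with DMSO in grey, DHA in red, 1 symbol shape per library number and a line at the mean of 3. In LP-1 the DHA libraries of ISCA1 lie above, and those of NFS1, ISCA2, LYRM4 and (narrowly) ISCU below, every DMSO library. DMSO library 3 of LP-1 (grey triangle) is the highest of 6 for 7 genes.

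DHA shifted 4 of the 9 genes in LP-1 and 2 in U266. In LP-1 ISCA1 rose, and NFS1, LYRM4 and ISCA2 fell. In U266 ISCA1 and CISD1 rose, by less. Changes are differences of mean log2(FPKM + 1) between DHA and DMSO, a scale that understates changes of low genes, and a gene was called at an adjusted p under 0.05 in limma (two-sided, Benjamini-Hochberg over all genes tested in the line). The drug moved much of the transcriptome, so these counts stand against a high background. In LP-1 20.0% of the 12514 tested genes were called higher and 20.2% lower, and in U266 21.1% of 10422 were called higher and 19.6% lower. The 1 rise and 3 falls among 9 genes in LP-1, and the 2 rises and no fall in U266, are counts too small to set apart from those shares. By unadjusted p under 0.05 there was also no fall among the 9 in U266. Without DMSO library 3 of LP-1, 6 of the 9 genes passed (3 higher and 3 lower), beside 3488 higher and 3257 lower of 12053 tested. Without DHA library 3 of U266 the count stayed at 2, beside 2152 higher and 2142 lower of 10203 tested. The median change of the 9 genes was -0.19 in LP-1 and 0.01 in U266, beside 0.01 and 0.03 over all tested genes.

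Separation of the libraries gave a like picture. All 3 DHA libraries lay below all 3 DMSO libraries for 4 of the 9 genes in LP-1 (NFS1, LYRM4, ISCA2 and ISCU), and above them for 1, ISCA1. Over all tested genes of LP-1 28.6% lay below and 30.2% above in this way. In U266 the DHA libraries of CISD1 lay above all DMSO libraries and no gene of the 9 lay below, beside 27.6% above and 23.9% below over all tested genes.

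The pair that supplies sulfur fell in LP-1. NFS1 (ENSG00000244005, chr20:35668055-35699359, minus strand, in GRCh38 with GENCODE v29, from which all gene positions here are taken) was at 10.98, 9.60 and 10.83 FPKM in the DMSO libraries of LP-1 and at 7.21, 7.81 and 7.0 FPKM in the DHA libraries. The groups did not overlap, and the library that stood apart was within the range of the other DMSO values for this gene. The fall was 0.46 on the log2 scale (log2 change -0.46, SE 0.09, limma adjusted p = 0.00734), and without DMSO library 3 it was -0.44 (adjusted p = 0.00398). NFS1 passed in all 13 alternatives computed for LP-1, with adjusted p from 0.00398 to 0.0425.

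LYRM4 (ENSG00000214113, chr6:5102593-5260939, minus strand), which holds NFS1 in its active form, was at 8.5, 7.74 and 11.21 FPKM with DMSO in LP-1 and at 6.18, 5.94 and 5.97 FPKM with DHA. Its DMSO libraries were spread by the high library 3, while the 3 DHA libraries lay close together below all of them. The log2 change was -0.52 (SE 0.13, limma adjusted p = 0.0231) and -0.37 without DMSO library 3 (adjusted p = 0.00304). The call was lost without DMSO library 1 or without any one DHA library, and with no filter on low values, where adjusted p reached at most 0.0816. Since the partners fell together, their ratio within a library moved little. NFS1 stood to LYRM4 as 1.17 ± 0.18 (mean ± SD of the FPKM ratio, n = 3) with DMSO and 1.22 ± 0.08 with DHA in LP-1 (exact permutation test, two-sided, p = 0.80), and as 2.02 ± 0.12 and 1.92 ± 0.08 in U266 (exact permutation p = 0.50).

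In U266 neither partner passed. NFS1 was at 6.22, 6.44 and 6.09 FPKM with DMSO and at 5.14, 5.61 and 6.12 FPKM with DHA, and only DHA library 3 reached the DMSO range. Its log2 change was -0.13 (95% interval -0.31 to 0.05, limma adjusted p = 0.23), and -0.19 without that library (adjusted p = 0.098). LYRM4 was at 2.88, 3.34 and 3.10 FPKM with DMSO and 2.81, 2.83 and 3.17 FPKM with DHA, with a log2 change of -0.06 (95% interval -0.29 to 0.17, limma adjusted p = 0.668) that was -0.10 without DHA library 3 (adjusted p = 0.437).

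The 250 bases before the RefSeq start sites of NFS1 (chr20:35699353-35699602, minus strand) and LYRM4 (chr6:5260951-5261200, minus strand; both GRCh38.p14) are printed because these complex partners fell together in LP-1. Capitals mark matches to 6 motifs searched on both strands.
NFS1 promoter: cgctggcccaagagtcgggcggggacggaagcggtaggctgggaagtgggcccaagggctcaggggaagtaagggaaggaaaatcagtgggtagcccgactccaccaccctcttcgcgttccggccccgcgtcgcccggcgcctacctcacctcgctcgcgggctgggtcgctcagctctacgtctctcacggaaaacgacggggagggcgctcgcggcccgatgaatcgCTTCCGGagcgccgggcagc
LYRM4 promoter: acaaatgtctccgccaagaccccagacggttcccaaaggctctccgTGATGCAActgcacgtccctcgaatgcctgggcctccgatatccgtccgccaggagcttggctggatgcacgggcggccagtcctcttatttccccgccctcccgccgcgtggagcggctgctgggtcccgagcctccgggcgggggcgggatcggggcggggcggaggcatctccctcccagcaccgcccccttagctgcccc
The motifs were the NRF1 core GCGCANGCG, the ETS core CCGGAAG, the CCAAT box, the antioxidant response element core TGACNNNGC, the C/EBP-ATF composite site TGATGNAA and the CREB/ATF site TGACGTCA. NFS1 held an ETS core on the reverse strand at -20 to -14 and LYRM4 a C/EBP-ATF site at -204 to -197, counted from the base before the start site, and these promoters shared no motif. Of 35097 RefSeq promoter windows of this length, 8.52% held the ETS core and 3.15% the C/EBP-ATF site. The LYRM4 site spans 8 bases and is of the kind that ATF4, a transcription factor of amino acid stress, can bind. A match is a description of the letters.

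The scaffold showed no call in either line. ISCU (ENSG00000136003, chr12:108562582-108569384, plus strand) had the highest DMSO mean of the 9 in both tables, although GLRX5 was above it in DMSO library 3 of LP-1. In LP-1 it was at 26.37, 26.11 and 35.65 FPKM with DMSO and at 24.45, 24.77 and 25.85 FPKM with DHA. The DHA libraries lay just under the lowest DMSO library, but the high DMSO library 3 widened the spread, and the log2 change of -0.21 (95% interval -0.52 to 0.11) did not pass (limma adjusted p = 0.238). Without that library it was -0.07 (95% interval -0.18 to 0.05, adjusted p = 0.275). In U266 ISCU was at 47.91, 53.21 and 48.59 FPKM with DMSO and 52.14, 48.99 and 49.02 FPKM with DHA, a log2 change of 0.01 with a 95% interval of -0.12 to 0.13 (limma adjusted p = 0.951), and 0.02 without DHA library 3 (adjusted p = 0.824). NFS1 stood to ISCU as 0.36 ± 0.06 with DMSO and 0.29 ± 0.02 with DHA in LP-1 and as 0.13 ± 0.004 and 0.11 ± 0.01 in U266, with overlapping groups in both (exact permutation p = 0.20 each). Without the libraries that stood apart the groups of this ratio no longer overlapped and were lower with DHA in each line. The means were 0.392 and 0.294 in LP-1 and 0.125 and 0.107 in U266. That left 2 libraries against 3, too few for such a separation to carry weight, and it was not tested.

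The genes closest to ISCU over the 6 libraries of a line, by the root mean square difference after each gene's DMSO mean was subtracted, were HMGN1 (0.02 on the log2 scale), ITGB3BP (0.03) and ENSG00000243176 (0.03) among 12514 genes in LP-1. In U266 they were CD74 (0.02), RPL4 (0.02) and BAX (0.02) among 10422. HMGN1, a nucleosome-binding protein, was at 50.66, 48.14 and 67.82 FPKM with DMSO and 46.58, 46.19 and 49.06 FPKM with DHA in LP-1. It was picked for closeness to ISCU in these same libraries, so its high DMSO library 3 follows from that choice.

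The steps that hand the cluster on showed no call among the members. HSCB (ENSG00000100209, chr22:28742031-28757515, plus strand), the co-chaperone, was at 7.47, 4.99 and 9.94 FPKM with DMSO in LP-1 and at 6.84, 7.78 and 7.84 FPKM with DHA. Its DMSO libraries spanned a range that held all DHA values. The log2 change was 0.04 (95% interval -0.47 to 0.56, limma adjusted p = 0.88), and 0.25 without DMSO library 3 (adjusted p = 0.195). In U266 it was at 9.08, 8.96 and 6.04 FPKM with DMSO and at 8.74, 8.79 and 7.34 FPKM with DHA, with a log2 change of 0.06 (95% interval -0.24 to 0.35, limma adjusted p = 0.764), and 0.13 without DHA library 3 (adjusted p = 0.481). HSCB had the shortest exon length of the 9 (1462 bases), and 301 of them, 20.6%, overlap CHEK2, a checkpoint kinase gene on the other strand. CHEK2 was at 8.38 to 10.3 FPKM with DMSO and 3.56 to 4.4 FPKM with DHA in LP-1, and at 10.2 to 11.9 and 9.10 to 10.1 FPKM in U266. The sources used here do not say whether counting used strand, so reads there cannot be told apart, and the part of CHEK2 in the values of HSCB was not tested.

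GLRX5 (ENSG00000182512, chr14:95533503-95544724, plus strand), which carries the cluster from the chaperone, was at 25.71, 19.34 and 36.68 FPKM with DMSO and 23.05, 24.23 and 21.86 FPKM with DHA in LP-1. It had the largest SD of the 9 with DMSO (27.2 ± 8.77 FPKM), and its log2 change of -0.19 (95% interval -0.70 to 0.33, limma adjusted p = 0.512) became 0.04 without DMSO library 3 (adjusted p = 0.771). In U266 GLRX5 was at 14.12, 15.74 and 14.01 FPKM with DMSO and 15.83, 13.13 and 14.19 FPKM with DHA (log2 change -0.02, 95% interval -0.19 to 0.15, limma adjusted p = 0.827; -0.02 without DHA library 3, adjusted p = 0.898).

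HSPA9, the chaperone that HSCB serves, moved apart from its co-chaperone. It rose from 64.8 ± 3.92 to 145.8 ± 7.02 FPKM in LP-1 (log2 change 1.16, limma adjusted p = 0.000318; 1.21 without DMSO library 3) and from 192.8 ± 5.12 to 308.9 ± 11.6 FPKM in U266 (0.68, adjusted p = 4.62e-06; 0.71 without DHA library 3), and it passed in all 13 alternatives of each line. The ratio of HSPA9 to HSCB was 8.38, 12.51 and 6.97 with DMSO and 20.7, 18.2 and 19.6 with DHA in LP-1, and 20.8, 22.2 and 31.7 against 36.3, 35.7 and 40.3 in U266. In both lines every DHA library lay above every DMSO library. Of 10 ratio comparisons (5 ratios in 2 lines), this one gave an exact permutation p = 0.10 in each line, the smallest that 3 against 3 libraries allow, with an adjusted p = 0.20.

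The A-type carriers ISCA1 and ISCA2, which act as partners in making the larger clusters, went opposite ways in LP-1. ISCA1 (ENSG00000135070, chr9:86264546-86283102, minus strand) was at 8.54, 7.65 and 9.57 FPKM with DMSO and at 14.59, 13.20 and 15.02 FPKM with DHA. ISCA2 (ENSG00000165898, chr14:74493720-74497106, plus strand) was at 8.41, 6.97 and 10.93 FPKM with DMSO and at 5.96, 4.97 and 5.75 FPKM with DHA. Both genes showed separate groups, 1 upward and 1 downward. ISCA1 rose by a log2 change of 0.68 (SE 0.10, limma adjusted p = 0.00339; 0.75 without DMSO library 3, adjusted p = 0.000476) and passed in all 13 alternatives. ISCA2 fell by 0.56 on the log2 scale (SE 0.16, limma adjusted p = 0.032; -0.40 without DMSO library 3, adjusted p = 0.0158). The call of ISCA2 was lost without DMSO library 1, without any one DHA library and with no filter on low values, with adjusted p up to 0.111.

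Within each library of LP-1 the ratio of ISCA1 to ISCA2 was 1.02, 1.10 and 0.88 with DMSO and 2.45, 2.66 and 2.61 with DHA. A ratio within a library does not depend on its scaling, and here DMSO library 3 did not stand apart. The mean went from 1.00 ± 0.11 to 2.57 ± 0.11 (n = 3 per group, a difference of 1.37 on the log2 scale, exact permutation p = 0.10, adjusted p = 0.20 over the 10 comparisons).

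In U266 ISCA1 was at 43.69, 40.85 and 41.75 FPKM with DMSO and at 50.79, 53.98 and 43.57 FPKM with DHA. DHA libraries 1 and 2 were above the DMSO range, and the library that stood apart was within it. ISCA1 rose by a log2 change of 0.22 (SE 0.07, limma adjusted p = 0.033), or 0.31 without DHA library 3 (adjusted p = 0.00144), but it passed in 6 of 13 alternatives, with adjusted p from 0.00144 to 0.122. ISCA2 was at 4.27, 4.26 and 4.44 FPKM with DMSO and 3.99, 4.17 and 5.24 FPKM with DHA, a log2 change of 0.03 (95% interval -0.20 to 0.26, limma adjusted p = 0.83) that was -0.07 without DHA library 3. The ratio of ISCA1 to ISCA2 was 10.2, 9.58 and 9.41 with DMSO and 12.7, 12.9 and 8.32 with DHA in U266. The 2 DHA libraries other than library 3 had a mean ratio of 12.8 against 9.74 with DMSO. Over all 3 the groups overlapped (exact permutation p = 0.40).

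**Figure D2:**
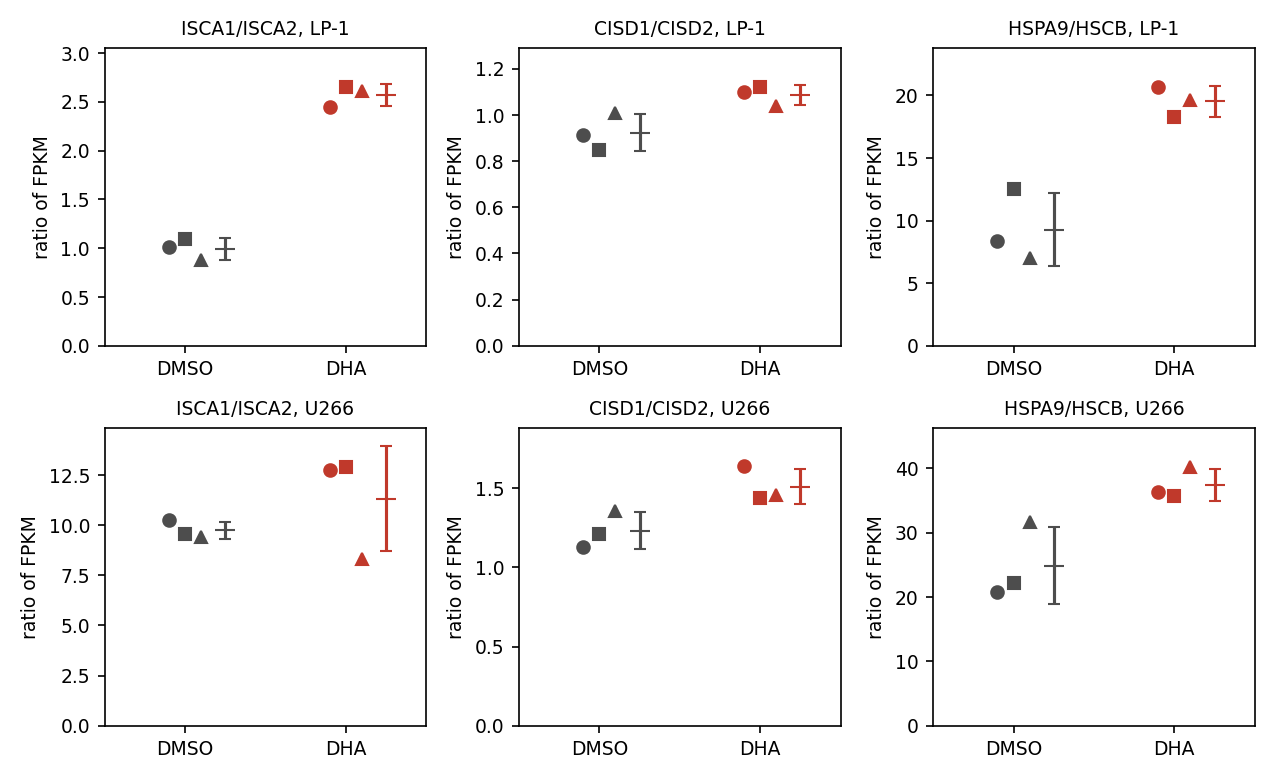
Ratios of FPKM within a library for 3 gene pairs in LP-1 (top) and U266 (bottom), with DMSO in grey, DHA in red, the same symbol per library number and a bar for the mean ± SD of 3. ISCA1/ISCA2 goes from 1.00 to 2.57 in LP-1 with no overlap, while in U266 DHA library 3 (triangle) at 8.32 lies below the DMSO libraries.

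Reads of ISCA1 can be shared with processed pseudogenes. The LP-1 table held 5 of them, and the U266 table none. Their reads together were 3.82 to 9.91% of the sum of ISCA1 and pseudogene reads in LP-1. That sum was 30.1 ± 2.74 reads per M with DMSO and 49.8 ± 3.40 with DHA. The difference was 0.73 on a log2 scale without the added 1, unlike the scale of the changes above. ISCA1 alone was at 27.8, 24.9 and 31.1 reads per M with DMSO and 47.4, 42.9 and 48.8 with DHA. The rise thus remained with the pseudogene rows added. ISCA2 shares 103 of its 3061 exon bases, 3.37%, with NPC2, a cholesterol transfer protein gene on the other strand, which was at 16.8 to 28.9 FPKM with DMSO and 9.56 to 10.3 FPKM with DHA in LP-1. NFS1 likewise shares 88 of 6024 exon bases, 1.46%, with ROMO1, at 36.4 to 109.4 FPKM with DMSO and 31.1 to 34.5 FPKM with DHA. The part of these neighbours in the falls was not tested.

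The 250 bases before the RefSeq start sites of ISCA1 (chr9:86282539-86282788, minus strand) and ISCA2 (chr14:74493515-74493764, plus strand) are shown because the partners parted. GENCODE v29 also annotates ISCA1 transcripts that begin further upstream, so this window is not the only start of that gene.
ISCA1 promoter: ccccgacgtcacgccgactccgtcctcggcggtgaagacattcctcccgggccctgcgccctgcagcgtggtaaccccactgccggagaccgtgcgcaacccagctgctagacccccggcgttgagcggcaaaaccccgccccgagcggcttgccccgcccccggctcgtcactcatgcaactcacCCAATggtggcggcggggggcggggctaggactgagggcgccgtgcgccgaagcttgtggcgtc
ISCA2 promoter: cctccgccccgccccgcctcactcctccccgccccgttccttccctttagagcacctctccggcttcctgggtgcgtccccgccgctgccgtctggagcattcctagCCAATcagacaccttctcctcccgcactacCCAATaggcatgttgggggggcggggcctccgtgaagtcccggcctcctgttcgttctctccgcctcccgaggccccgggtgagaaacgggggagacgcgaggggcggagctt
Among the same 6 motifs, capitals mark CCAAT, which binds the factor NF-Y and was found once in ISCA1 (-64 to -60) and at 2 places in ISCA2 (-143 to -139 and -113 to -109). It was in 32.0% of all promoter windows and in 5 of the 9 genes. GC content was 72.0% in ISCA1 and 68.8% in ISCA2, beside a median of 58.0% over all windows. The partners that parted in expression thus held the same motif and no other of the 6. The CREB/ATF site was in ISCU alone among the 9 and in 1.65% of all windows, the antioxidant response element core likewise in ISCU alone and in 10.9%, and the NRF1 core in ISCU and CISD1 and in 6.57%.

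CISD1 (ENSG00000122873, chr10:58269058-58289586, plus strand), the mitoNEET gene, rose in U266. It was at 19.10, 20.64 and 20.61 FPKM with DMSO and at 25.56, 23.73 and 21.72 FPKM with DHA, with the DHA library that stood apart the lowest of the 3 and still above all DMSO libraries. The log2 change was 0.22 (SE 0.07, limma adjusted p = 0.0215) and 0.28 without that library (adjusted p = 0.00561). It passed in 7 of 13 alternatives, with adjusted p from 0.00561 to 0.0822.

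In LP-1 CISD1 was at 9.30, 8.31 and 14.51 FPKM with DMSO and at 14.23, 13.92 and 13.85 FPKM with DHA. Here DMSO library 3 alone decided the call, since it lay just above the DHA libraries while the other 2 lay well below. Over all 6 libraries the log2 change was 0.39 (95% interval -0.06 to 0.85, limma adjusted p = 0.138). Without DMSO library 3 it was 0.62 (SE 0.06, adjusted p = 0.000425; 0.000425 to 0.31 over the alternatives).

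CISD2 (ENSG00000145354, chr4:102868974-102892807, plus strand) followed the same pattern in LP-1. It was at 10.17, 9.81 and 14.40 FPKM with DMSO and at 12.94, 12.40 and 13.34 FPKM with DHA, with a log2 change of 0.18 (limma adjusted p = 0.365) that became 0.34 without DMSO library 3 (adjusted p = 0.00278; 0.00278 to 0.67 over the alternatives). In U266 it was at 16.87, 17.07 and 15.18 FPKM with DMSO and 15.60, 16.52 and 14.90 FPKM with DHA (log2 change -0.06, 95% interval -0.20 to 0.09, adjusted p = 0.508; -0.03 without DHA library 3, adjusted p = 0.806). CISD3, the family member inside mitochondria, did not pass in either line (log2 change -0.46 in LP-1, limma adjusted p = 0.0753, and -0.10 in U266, 0.471).

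The ratio of CISD1 to CISD2 was higher with DHA in every library of both lines. In LP-1 it was 0.91, 0.85 and 1.01 with DMSO and 1.10, 1.12 and 1.04 with DHA. In U266 it was 1.13, 1.21 and 1.36 with DMSO and 1.64, 1.44 and 1.46 with DHA. The differences were 0.24 and 0.30 on the log2 scale, each with an exact permutation p = 0.10, the smallest possible, and an adjusted p = 0.20. DMSO library 3 of LP-1, which decided the call of CISD1, thus did not close the gap between the groups in this ratio.

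**Figure D3:**
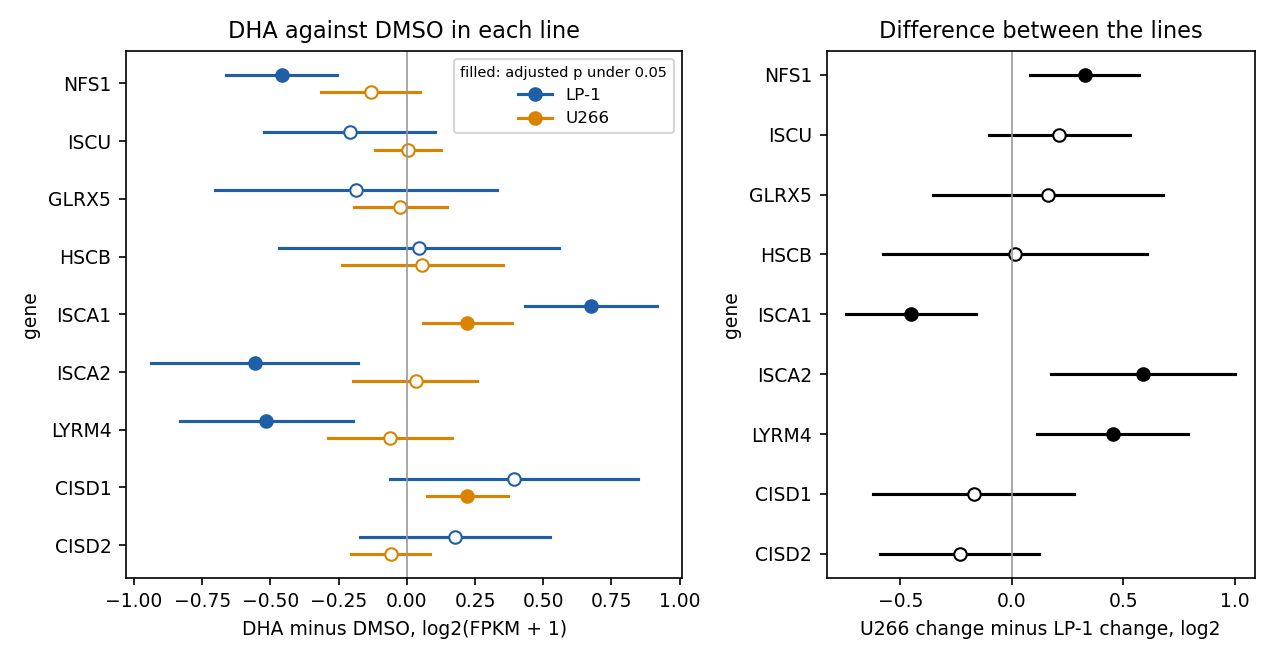
Left, the log2 change (DHA minus DMSO) of the 9 genes with 95% intervals in LP-1 (blue) and U266 (orange); right, the U266 change minus the LP-1 change. Filled points passed at an adjusted p under 0.05: NFS1, ISCA1, ISCA2 and LYRM4 in LP-1 and in the difference, ISCA1 and CISD1 in U266.

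Whether the lines responded differently was tested directly as the U266 change minus the LP-1 change, over all 12 libraries and the 8917 genes tested in both. The 4 genes called in LP-1 were also the ones called here. ISCA1 had a smaller rise in U266 (difference -0.45, SE 0.13, limma adjusted p = 0.0214). The falls of ISCA2, LYRM4 and NFS1 in LP-1 had no called counterpart in U266 (differences 0.59, 0.45 and 0.33, adjusted p = 0.0312, 0.0404 and 0.0402). Over all tested genes 16.0% had a higher and 18.5% a lower change in U266, beside 3 and 1 of these 9. The median difference was 0.16 for the 9 genes and -0.02 for all. ISCA1 passed in 16 of 20 alternatives, ISCA2 in 12 of 19, NFS1 in 10 of 20 and LYRM4 in 6 of 19.

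Leaving out both libraries that stood apart was a setting chosen after seeing the data. Over all 8729 genes then tested, 1935 had a higher and 2246 a lower change in U266. Beside that high background 5 of the 9 genes passed. These were ISCA1 (-0.44, adjusted p = 0.00197), ISCA2 (0.34, 0.0392), LYRM4 (0.27, 0.0483), CISD1 (-0.34, 0.00782) and CISD2 (-0.36, 0.00546), while NFS1 did not pass (0.25, 0.0673). Without U266 DHA library 3 alone only ISCA1 passed (-0.37, adjusted p = 0.0486), beside 1250 higher and 1399 lower of 8852 tested. Without LP-1 DHA library 3 none of the 9 passed, beside 1119 higher and 1282 lower of 8847 tested. None passed without U266 DMSO library 1 either, beside 1152 higher and 1297 lower of 8894 tested.

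**Figure D4:**
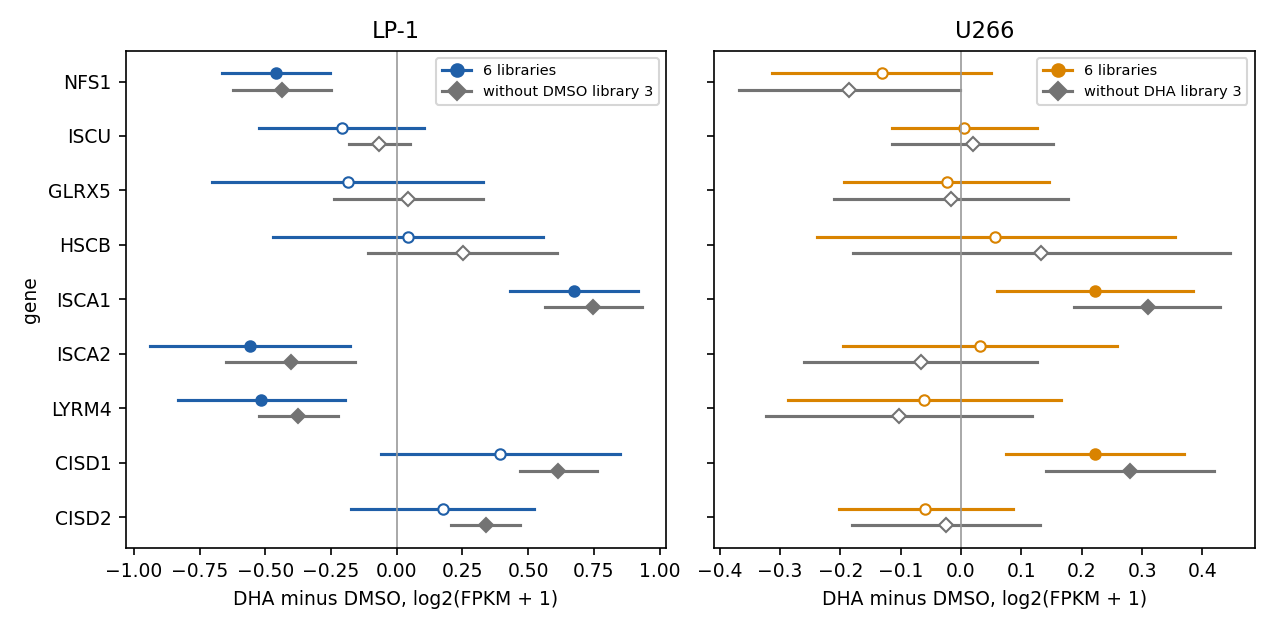
Log2 change (DHA minus DMSO) with 95% interval for each gene over all 6 libraries of a line (coloured circles) and without the library that stood apart (grey diamonds), filled where adjusted p was under 0.05. In LP-1, CISD1 goes from 0.39 to 0.62 and CISD2 from 0.18 to 0.34 and both become filled, while in U266 ISCA1 goes from 0.22 to 0.31.

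Levels among the genes can be ordered within a table, since FPKM is scaled by length. With DMSO in LP-1 ISCU (29.4 ± 5.43 FPKM, SD, n = 3) and GLRX5 (27.2 ± 8.77) overlapped at the top. The other 7 lay between 7.47 (HSCB) and 11.5 (CISD2), and each of them overlapped its neighbour in that order. In U266 the order with DMSO was clearer, with ISCU (49.9 ± 2.88 FPKM) above ISCA1 (42.1 ± 1.45), CISD1 (20.1 ± 0.88), CISD2 (16.4 ± 1.04) and GLRX5 (14.6 ± 0.97). Below these came HSCB (8.02 ± 1.72), NFS1 (6.25 ± 0.18), ISCA2 (4.32 ± 0.10) and LYRM4 (3.11 ± 0.23). Only CISD2 with GLRX5 and HSCB with NFS1 overlapped as neighbours. The tables were made differently (Ensembl genes in LP-1, symbols in U266), so levels were not compared across lines.

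The wider pathway was described through 7 lists of 58 genes in all, of which 54 were tested in each line. In LP-1 12 were called higher and 6 lower, and in U266 9 higher and 15 lower, beside the shares of all genes given above (20.0% higher and 20.2% lower in LP-1, 21.1% and 19.6% in U266). Without DMSO library 3 of LP-1 the counts were 16 higher and 10 lower of 53, beside 3488 higher and 3257 lower of 12053 tested. Without DHA library 3 of U266 they were 7 higher and 15 lower of 53, beside 2152 and 2142 of 10203 tested. Among 5 core partners in mitochondria 1 rose and 1 fell in LP-1, and of 4 tested in U266 1 rose and 1 fell. HSPA9 was the rise in each line. The falls, named after their values were seen, were FDXR in LP-1 (1.54 ± 0.45 to 0.72 ± 0.14 FPKM, log2 change -0.56, limma adjusted p = 0.0291), the reductase that feeds electrons into cluster assembly, and NDUFAB1 in U266 (62.9 ± 4.57 to 52.7 ± 3.64 FPKM, -0.25, adjusted p = 0.0127), the acyl carrier protein bound to LYRM4. No DHA library of LP-1 reached 1 FPKM for FDXR, so the gene met the filter through the higher DMSO group alone and supports no direction for the list. Without DMSO library 3 it was not tested. In U266 the level of FDXR went from 0.97 ± 0.28 to 1.99 ± 0.89 FPKM, with every DHA library above every DMSO library. The log2 change was 0.57 (limma adjusted p = 0.053), and 0.34 without DHA library 3 (adjusted p = 0.0872). The change of FDXR differed between the lines by 1.13 (limma adjusted p = 0.00846). That value takes in the LP-1 fall that the filter favoured, so it supports no difference between the lines. Without both libraries that stood apart, FDXR was not tested in the difference. NDUFAB1 had a log2 change of -0.35 in LP-1 (adjusted p = 0.348), which was -0.02 without DMSO library 3 (adjusted p = 0.887). The list's medians were -0.17 and 0.26.

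Among 6 late transfer factors 1 rose and 1 fell in LP-1, and 3 rose and 1 fell in U266. GLRX2, a mitochondrial glutaredoxin that itself binds a cluster, had the largest change in LP-1 (10.1 ± 2.49 to 16.3 ± 0.15 FPKM, log2 change 0.66, limma adjusted p = 0.0181; 0.83 without DMSO library 3) and also rose in U266 (16.4 ± 1.46 to 21.3 ± 1.5 FPKM, 0.36, adjusted p = 0.00345). In LP-1 GLRX2 passed in 9 of 13 alternatives, and its call was lost without DMSO library 1 or any one DHA library (adjusted p up to 0.0657). IBA57, the partner of ISCA1 and ISCA2, had the largest in U266, from 0.76 ± 0.02 to 1.63 ± 0.41 FPKM (0.57, adjusted p = 0.0154), and did not pass in LP-1 (0.18, adjusted p = 0.283). In U266 it met the filter through the DHA group alone, since its DMSO libraries were at 0.74 to 0.78 FPKM, and without DHA library 3 it was not tested. Without that library 1 of 5 genes of the list rose in U266, beside 2152 higher of 10203 tested. The medians of this list were -0.23 in LP-1 and 0.22 in U266.

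Of 3 genes for mitochondrial iron import and ABC export, none passed in LP-1 by limma (1 had an unadjusted p under 0.05, ABCB10 at 0.0402) and 1 rose in U266. SLC25A37 (mitoferrin-1), a mitochondrial iron importer, rose in U266 from 1.91 ± 0.18 to 3.99 ± 0.62 FPKM (0.77, adjusted p = 0.000643). In LP-1 it was at 16.4 ± 3.41 and 12.8 ± 0.59 FPKM (-0.31, adjusted p = 0.143; -0.48 without DMSO library 3, adjusted p = 0.0015). Its change differed between the lines by 1.09 (adjusted p = 0.00126).

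In the cytosolic assembly machinery, 1 of 10 tested genes rose and none fell in LP-1, and 1 rose and 3 fell in U266 (medians -0.03 and -0.19). BOLA2 was listed at 0 in every library of both tables, and its near-identical copy makes that value uncertain. NDOR1, which passes electrons to the machinery, rose in LP-1 from 2.98 ± 0.78 to 4.72 ± 0.07 FPKM (log2 change 0.54, limma adjusted p = 0.0323; 0.37 without DMSO library 3, adjusted p = 0.00352) and did not pass in U266 (-0.19, 0.0601). In LP-1 it passed in 7 of 12 alternatives, and the call was lost without DMSO library 1, without any one DHA library and with no filter on low values (adjusted p up to 0.0998). CIAO2A, which matures the cytosolic aconitase ACO1, fell in U266 from 29.4 ± 1.53 to 22.9 ± 2.14 FPKM (-0.35, adjusted p = 0.00313), and had a log2 change of -0.47 in LP-1 that did not pass (adjusted p = 0.0794; -0.27 without DMSO library 3, adjusted p = 0.0357).

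Among 12 mitochondrial cluster-binding proteins 2 rose and 2 fell in each line (medians -0.27 in LP-1 and 0.05 in U266). LIAS, the lipoate synthase, had the largest change in LP-1, from 2.00 ± 0.25 to 3.72 ± 0.24 FPKM (log2 change 0.65, limma adjusted p = 0.00359; 0.69 without DMSO library 3), and ETFDH, an electron carrier oxidoreductase, in U266, from 13.3 ± 0.54 to 16.9 ± 0.12 FPKM (0.32, adjusted p = 0.00109). The complex I subunit NDUFS1, named after its values were seen, rose in LP-1 (0.38, adjusted p = 0.00974; 0.34 without DMSO library 3, adjusted p = 0.00225) and fell in U266 (-0.32, adjusted p = 0.003; -0.28 without DHA library 3, adjusted p = 0.00811), a difference of -0.70 (adjusted p = 0.000367). The 2 falls in LP-1 were NDUFS8 (-0.645, limma adjusted p = 0.0308) and NDUFV2 (-0.583, 0.0327). NDUFS8 also fell in U266 (-0.233, 0.0189), where NDUFV2 did not pass (0.193, 0.186).

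Among cytosolic and nuclear cluster-binding proteins, 7 of 17 tested rose and 2 fell in LP-1, and 1 of 18 rose and 8 fell in U266 (medians 0.29 and -0.14). Over all tested genes 20.0% rose and 20.2% fell in LP-1, and 21.1% rose and 19.6% fell in U266. Without DMSO library 3 of LP-1 8 of the 17 rose and 4 fell, beside 3488 higher and 3257 lower of 12053 tested. REV3L, the catalytic subunit of a translesion polymerase, rose in LP-1 from 1.92 ± 0.68 to 4.23 ± 0.20 FPKM (log2 change 0.87, limma adjusted p = 0.0098; 0.69 without DMSO library 3, adjusted p = 0.00243) and did not pass in U266 (0.20, 0.0931). POLD1, a replicative polymerase subunit, fell in U266 from 18.6 ± 0.58 to 13.02 ± 0.95 FPKM (-0.49, adjusted p = 0.000207) and had a log2 change of -0.18 in LP-1 (adjusted p = 0.202; -0.27 without DMSO library 3, adjusted p = 0.0266). ACO1, which becomes the iron regulatory protein when it lacks its cluster, fell in U266 from 7.47 ± 0.49 to 6.23 ± 0.19 FPKM (-0.23, adjusted p = 0.0332) and did not pass in LP-1 (-0.10, 0.371). In U266 it passed in 7 of 13 alternatives, and the call was lost with no filter, with the replicate block and without DMSO library 2 or 3 or DHA library 1 or 2 (adjusted p up to 0.136). In the difference between the lines, 6 of 17 genes of this list had a lower change in U266 and none a higher one, beside 18.5% lower and 16.0% higher over all 8917 genes tested. Without both libraries that stood apart these counts were 7 and 1, beside 2246 lower and 1935 higher over all 8729 genes tested.

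**Figure D5:**
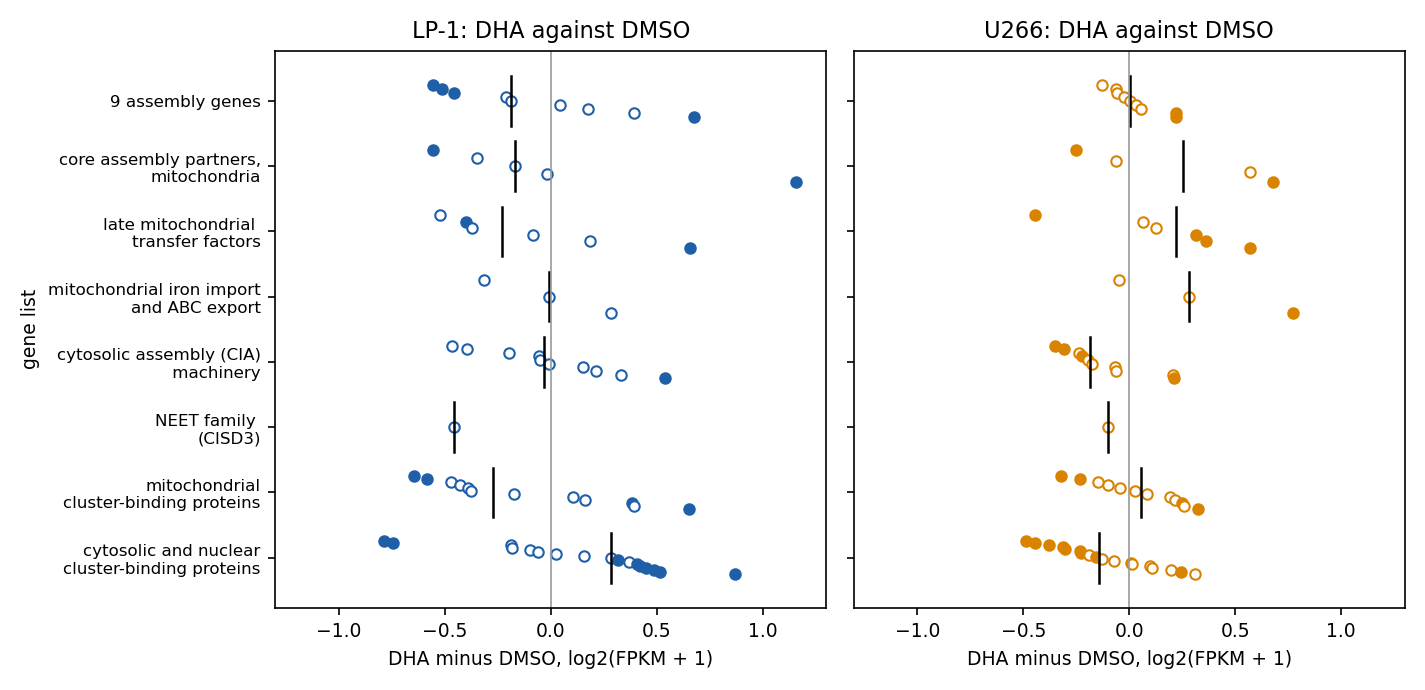
Log2 change (DHA minus DMSO) of every tested gene of the 9 assembly genes and the 7 other lists in LP-1 (left) and U266 (right), 1 point per gene, filled where adjusted p was under 0.05, with a black line at the list's median. The cytosolic and nuclear cluster-binding proteins have medians of 0.29 in LP-1 and -0.14 in U266, and the largest rise in LP-1 is HSPA9 at 1.16.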

How the data were processed

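Values are FPKM as deposited by the authors, 1 table per line, used without rounding. Per the submitters' processing notes the builds are GRCm38 and mm10, which are mouse builds, while the rows of both tables are human genes. The sources used here name no aligner, counting tool, strand setting or annotation. Per the labels' protocols, libraries came from total RNA with a SMARTER mRNA kit.

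The analysis used log2(FPKM + 1) for genes of at least 1 FPKM in at least 3 of 6 libraries of a line, limma 3.58.1 in R 4.3.3 (lmFit, eBayes with a variance trend), two-sided tests and a threshold of 0.05 on p-values adjusted by Benjamini-Hochberg across every gene tested. The lines were compared by the interaction contrast over 12 libraries. Positions and exon lengths came from GENCODE v29 and promoters from RefSeq (GRCh38.p14), where all 9 genes matched by symbol. Depth was estimated from the steps of low FPKM values, which came within 0.1 read of a whole number for 90.4 to 91.3% of those in LP-1 libraries and 94.9 to 96.4% of those in U266 libraries. A count of 3 reads on 2 kb was worth 0.0855 to 0.111 FPKM in LP-1 and 0.0692 to 0.146 in U266. Ratios were tested by exact permutation over libraries. Intervals and these limits cover the spread between libraries or counting error alone.

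The fits were also run on simulated data with 200 changed genes per line. There the LP-1 fit of 12514 genes recovered 19.7, 67.2 and 86.6% of genes changed by 0.5, 1 and 2 on the log2 scale. The U266 fit of 10422 genes recovered 68.2, 92.5 and 98.5%. False calls were 10 and 9. In the data 5027 and 4241 genes were called, so the adjusted threshold lay elsewhere. These rates therefore do not describe how much the reported fits could recover. Other genes named were, per list and line, the called gene with the largest change, and HSPA9 and ACO1 whatever their result. Some genes of the pathway are not reported here. Genes nearest to ISCU were the 3 with the smallest root mean square difference. The members, gene lists and tests were chosen with earlier results of these data known. Alternatives were no filter, a filter on a mean of 5 FPKM or more, TMM-style scaling, quantile normalization, a pseudocount of 0.1, no variance trend, a replicate block and leaving out each library. Leaving out both libraries that stood apart was added after seeing the data.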

Additional observations from a re-analysis of the deposited data

Results flagged for a closer look

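With all 12 libraries the DHA effect differed between the lines, by the test of the difference itself, for 4 of the 9 assembly genes. These calls depended on the setting. ISCA1 passed in 16 of 20 alternatives, ISCA2 in 12 of 19, NFS1 in 10 of 20 and LYRM4 in 6 of 19. The U266 change minus the LP-1 change was -0.45 for ISCA1, 0.59 for ISCA2, 0.45 for LYRM4 and 0.33 for NFS1 on the log2 scale (limma adjusted p = 0.0214, 0.0312, 0.0404 and 0.0402).

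Among the other genes named, it was -0.48 for HSPA9 (limma adjusted p = 0.00347), -0.40 for LIAS (0.0235), -0.67 for REV3L (0.0213), -0.73 for NDOR1 (0.00742), 1.09 for SLC25A37 (0.00126) and 0.50 for ETFDH (0.00269). HSPA9 rose in both lines and rose more in LP-1. These 10 genes are those with an adjusted p under 0.05 for the difference among the genes named by the stated rule, and 16.0 and 18.5% of all 8917 genes tested in both lines were called higher and lower in the same contrast.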

How the results depend on the processing

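Of the 4 genes called in LP-1, 2 were called with no filter, and the count ran from 2 to 6 when each library was left out. The 2 called in U266 became 0 with no filter, with TMM-style scaling and with no variance trend, and ran from 0 to 2 without each library. For the difference between the lines, the 4 calls became 2 with no filter, 2 with a mean of at least 5 FPKM and 2 with the replicate block, and ran from 0 to 6 without each library. A pseudocount of 0.1 and TMM-style scaling each lost LYRM4 there. Quantile normalization lost ISCA1 and LYRM4 and called ISCU instead (limma adjusted p = 0.0486). The block kept the 4 calls of LP-1 and the 2 of U266. In the difference it lost LYRM4 and NFS1 (limma adjusted p = 0.054 and 0.0908). Deviations of same-numbered libraries correlated between 0.024 and 0.183 (LP-1) and between -0.083 and -0.025 (U266). Those of differently numbered libraries ran from -0.173 to 0.162 (LP-1) and from -0.023 to 0.073 (U266). These weak values cannot settle whether replicate numbers pair the samples. With a mean of at least 5 FPKM, fewer genes were tested, and 3034 of all genes were called in LP-1 (5027 with the stated filter) and 2017 in the difference (3077). Without each library the count of all genes ran from 2783 to 6745 in LP-1.

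Reversals fell on changes that had not passed. Without each library, GLRX5 ran from -0.401 to 0.044 in LP-1 and from -0.091 to 0.035 in U266, and HSCB from -0.184 to 0.251 and from -0.112 to 0.147. In U266 ISCU ran from -0.024 to 0.051 and ISCA2 from -0.067 to 0.095, ISCU was -0.022 with TMM-style scaling and ISCA2 was -0.045 with quantile normalization. In the difference between the lines, GLRX5, HSCB and CIAO2A were -0.061, -0.117 and -0.098 without both libraries that stood apart, and HSCB was -0.008 with quantile normalization. Without each library these 3 ran from -0.068 to 0.377, from -0.193 to 0.241 and from -0.078 to 0.262. The cause of these moves was not tested. With 3 libraries a group, the spread among LP-1 DMSO libraries limits what could be called there.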
